A study of Rattus norvegicus with 14 samples.

Results

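The genes described here encode the nuclear subunits of the mitochondrial respiratory chain and ATP synthase. They were taken as all probe sets, groups of short probes for 1 transcript, whose single gene symbol in the platform annotation began with Nduf, Uqcr, Atp5 or Cox4 to Cox8, or was Sdha, Sdhb, Sdhc or Sdhd. This gave 89 probe sets for 84 genes, out of 15866 probe sets tested, of which 12783 carried 1 symbol and stood for 10411 genes. By complex, 35 probe sets (34 genes) belonged to complex I, 5 to complex I assembly factors, 5 (4 genes) to complex II, 7 to complex III, 18 to complex IV and 19 (16 genes) to complex V. Ndufa4 and Ndufa4l2 were counted with complex IV, where the Ndufa4 protein is now placed. A further 7 probe sets matched the rule only among several symbols and were left out, so that Ndufa10, Ndufs5, Uqcrb, Cox7a2, Atp5mc1 and Atp5mc2 are not described and Cox5a is described from its other probe set.

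The respiratory chain lies in the inner mitochondrial membrane. Complexes I and II take electrons from NADH and succinate, complex III passes them through cytochrome c to complex IV, which reduces oxygen, and complex V uses the resulting proton gradient to make ATP. Most subunits are encoded in the nucleus and a few core ones in mitochondrial DNA, so both genomes contribute to complexes I, III, IV and V. In the adult testis several subunits have germ cell isoforms, and steroid-producing cells depend on mitochondria because cholesterol side-chain cleavage takes place there.

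The samples were gonads of fetal rats on single-channel Affymetrix expression arrays, 14 arrays in 7 groups of 2. Testis and ovary were each sampled on day 13 (E13), day 14 (E14) or day 16 (E16) of gestation. Further E13 testes spent 3 days in organ culture, laid on floating filters over CMRL 1066, a defined medium to which insulin, transferrin and bovine serum albumin had been added. No other treatment, allele or strain difference was named for any group. Each array held an independent RNA pool of 20 to 40 gonads, so a value averages over many animals and over all cell types of the gonad. In such bulk samples fewer cells of a type and less RNA per cell cannot be told apart. Values were scaled intensities on a linear scale, log2 differences were taken on log2(intensity + 16), and a difference was called where limma's adjusted p (Benjamini-Hochberg over all 15866 probe sets) was under 0.05. With 2 arrays per group the members' 95% intervals reached a median of 0.53 to either side on the log2 scale.

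The gonads carried markers of their sex and age, with exceptions. Summed over 4 of 6 listed Sertoli markers (nurse cells of the testis), intensities were 449.5 to 572.1 in E13 testis and 1686.7 to 3399.8 in later and cultured testis, against 368.5 to 685.3 in ovary. Leydig cell markers (steroid-producing cells, 6 of 6 measured) summed to 3405.7 to 8025 in E16 and cultured testis, against 110.1 to 223.7 in all other arrays. Ovary markers (4 of 5 measured) summed to 488.9 to 1154.3 in ovary, against 182.7 to 342.5 in fresh and cultured testis. In E16 ovary that sum was 1040.3 in replicate 1 and 643.8 in replicate 2. Xist, which marks cells with an inactive X chromosome, went against the label in 4 arrays: it was 36.2, 269.2 and 151.1 in replicate 1 of E13, E14 and cultured testis, where the other testis arrays had 1.5 to 4.8, and only 12.8 in E16 ovary replicate 2, where the other ovary arrays had 151.7 to 672.3. The ratio of 3′ to 5′ actin signal, a measure of RNA integrity, lay between 1.47 and 2.13 in 12 arrays and reached 2.97 in replicate 2 of cultured testis and 3.34 in replicate 1 of E16 ovary. Both E16 ovary arrays therefore stood apart in one of these measures, and the main results that rest on them are given without one or the other as well.

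Respiratory chain transcripts were abundant in every gonad. Of the 89 probe sets, 81 had a mean intensity of at least 64 over the 14 arrays, the other 8 were dim, and none was listed at 0 in any array. The median of the members on each array lay between 9.07 and 9.71 on the log2 scale, where the median of all probe sets lay between 6.24 and 6.41. Some members were steady and others less so. Atp5f1a, the alpha subunit of the ATP synthase head, varied only 1.35-fold between its lowest and highest array, and Cox6b1, a general subunit of complex IV, also 1.35-fold. Among the 81 brighter probe sets the widest range, 3.56-fold, was that of Cox6b2.

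The array medians differed with the period of the chip. From the form of the chip labels the arrays fell into 3 periods, which are not known to be hybridisation or scan batches. The members' median was 9.44 to 9.71 on the 6 arrays of period 1, 9.07 to 9.25 on the 3 of period 2 and 9.14 to 9.39 on the 5 of period 3. In each of the 6 groups with 1 array from period 1, that array was the brighter one for 61 to 79 of the 89 members, with a median gap of 0.21 to 0.34, while the median gap over all probe sets lay between -0.05 and 0.03. After quantile normalization the gaps were 0.12 to 0.25. The part of the period in the differences was not tested on its own, and values within a period are given for the main differences.

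**Figure D1:**
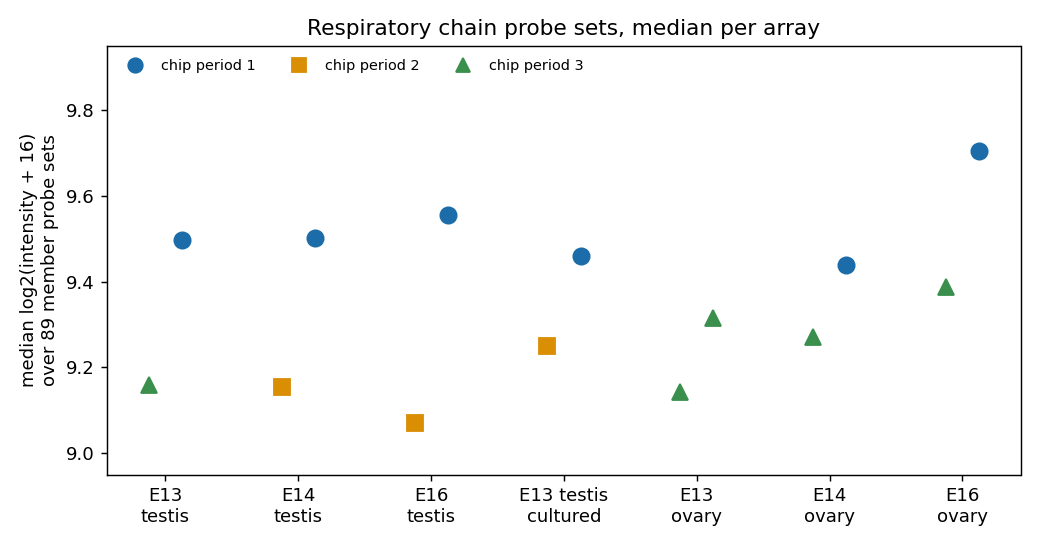
Median log2(intensity + 16) over the 89 member probe sets on each of the 14 arrays, by group, with the marker showing the chip period. The 6 arrays of period 1 lie at 9.44 or above and the other 8 at 9.39 or below, in testis and ovary alike.

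The promoters of 76 of the 84 genes were found in the RefSeq promoter table of build GRCr8, each a window of 250 bases before to 50 after the start of transcription. Motifs were searched on both strands for 3 factors known to act on nuclear genes of mitochondria, and for the TATA box. NRF1's motif was in 15 members (19.7%, against 9.02% of the 8611 promoters of genes on the array), the ETS core CCGGAAG, bound by GABPA, was in 21 (27.6% against 15.5%), and YY1's AAGATGGC was in 17 (22.4% against 5.13%). TATAAA was in 8 (10.5% against 8.71%). In all, 43 members (56.6%) held at least 1 of the first 3 motifs, against 25.8% of array genes; in none of the 76 did the ETS and YY1 letters overlap each other. These are descriptions of letters, not of binding. The 4 promoters printed here were picked from members described below: Ndufaf8 (chr10:105879658-105879957), Uqcrc1 (chr8:118467973-118468272), Cox4i1 (chr19:65630133-65630432) and Cox6b2 (chr1:78122621-78122920), all on the plus strand, with matched motifs in capitals. Ndufaf8 held an ETS core 16 bases before the start and a YY1 motif from base 3 after it, Uqcrc1 an NRF1 motif 64 bases before the start and a YY1 motif across the start, and Cox4i1 a pair of ETS cores on the opposite strand after the start. Cox6b2, which had the widest range among the 81 brighter probe sets, held none of the 4 motifs. Neither did several other members of complex IV, such as Cox5a, Cox7b, Cox7c and the steady Cox6b1.
Ndufaf8: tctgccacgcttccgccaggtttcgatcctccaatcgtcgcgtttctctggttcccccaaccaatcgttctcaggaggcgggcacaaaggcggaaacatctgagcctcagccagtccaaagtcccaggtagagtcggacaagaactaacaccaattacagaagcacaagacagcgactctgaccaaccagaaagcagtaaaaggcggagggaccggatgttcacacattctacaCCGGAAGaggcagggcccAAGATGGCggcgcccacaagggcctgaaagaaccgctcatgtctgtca
Uqcrc1: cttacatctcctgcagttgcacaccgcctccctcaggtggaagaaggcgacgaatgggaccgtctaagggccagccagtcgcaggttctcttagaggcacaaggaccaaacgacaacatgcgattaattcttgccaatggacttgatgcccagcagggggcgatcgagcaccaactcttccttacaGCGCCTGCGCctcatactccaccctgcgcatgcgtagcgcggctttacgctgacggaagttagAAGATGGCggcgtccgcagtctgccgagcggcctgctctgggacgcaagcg
Cox4i1: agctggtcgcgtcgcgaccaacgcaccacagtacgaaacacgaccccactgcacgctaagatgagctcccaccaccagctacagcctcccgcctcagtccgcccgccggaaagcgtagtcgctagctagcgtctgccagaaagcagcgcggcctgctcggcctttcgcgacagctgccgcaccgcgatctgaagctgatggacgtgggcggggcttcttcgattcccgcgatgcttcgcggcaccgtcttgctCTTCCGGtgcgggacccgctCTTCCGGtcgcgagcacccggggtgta
Cox6b2: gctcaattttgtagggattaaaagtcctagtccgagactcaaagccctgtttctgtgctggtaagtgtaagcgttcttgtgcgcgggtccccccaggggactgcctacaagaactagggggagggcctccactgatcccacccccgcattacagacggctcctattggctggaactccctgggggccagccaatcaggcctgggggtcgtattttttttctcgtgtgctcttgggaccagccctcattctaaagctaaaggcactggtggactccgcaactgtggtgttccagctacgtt

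Across the 13 comparisons a single member was called. It was Ndufaf8, an assembly factor of complex I, which was higher in testis than in ovary over the 3 ages; 366 of all probe sets (2.31%) were called in that comparison. Limma called 0 of the 89 in the other 12. In testis against ovary at E13 the background was 0.0126% of all probe sets, at E14 0.139%, and at E16 1.74%, and for the change in the sex difference from E13 to E16 it was 0.145%. Between ages it was 0.0693% (testis E14 minus E13), 0.12% (testis E16 minus E14), 0.945% (testis E16 minus E13), 0% (ovary E14 minus E13 and ovary E16 minus E14) and 0.889% (ovary E16 minus E13). For cultured testis it was 1.39% against fresh E13 testis and 0.0945% against fresh E16 testis. In a set of 89 such shares amount to few or no probe sets, so the absence of calls is near the background in each comparison.

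Without the adjustment the members were also close to the rest of the array in most comparisons. At an unadjusted p under 0.05, members higher and lower were 2 and 1 of 89 in testis against ovary at E13 (4.85% and 2.94% of all probe sets), 2 and 0 at E14 (4.21% and 3.79%) and 1 and 6 at E16 (7.98% and 5.02%). Over the mean of the ages they were 5 and 7 (11.8% and 8.21%), and for the change in the sex difference they were 0 and 3 (3.79% and 2.7%). In testis they were 3 and 0 for E14 minus E13 (3.18% and 4.01%), 2 and 1 for E16 minus E14 (3.28% and 1.87%) and 1 and 0 for E16 minus E13 (6.01% and 4.73%). For ovary the counts were 2 and 0 for E14 minus E13 (2.08% and 2.2%), 4 and 0 for E16 minus E14 (2.89% and 3.26%) and 10 and 0 for E16 minus E13 (5.19% and 5.47%). Cultured testis gave 2 and 1 against fresh E13 testis (7.36% and 4.98%) and 2 and 2 against fresh E16 testis (3.6% and 3.08%). In ovary from E13 to E16 all 10 members past this threshold were higher, 11.2% of the 89.

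**Figure D2:**
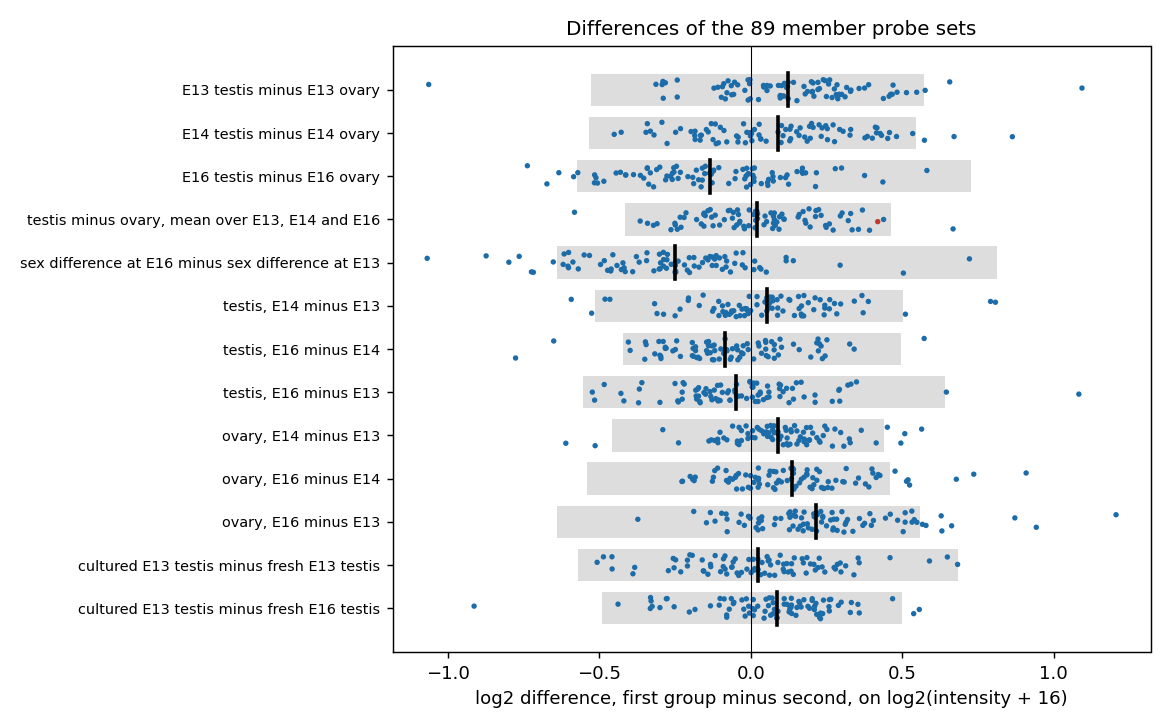
Log2 difference of each of the 89 member probe sets (points) in the 13 comparisons, first group minus second, with the members' median as a black bar and the 5th to 95th percentile of all 15866 probe sets as a grey band. The single red point, at 0.42, is Ndufaf8, the only call, and the members' median is highest in ovary E16 minus E13 (0.22) and lowest for the sex difference at E16 minus E13 (-0.25).

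The members' medians departed from those of all probe sets mainly where E16 ovary was compared. Between E13 and E16 the median difference over the members was 0.22 in ovary, with 74 of 89 positive (83.1%), where the median of all probe sets was -0.02 and 47.0% were positive. In testis the same interval gave a median of -0.05, with 38 of 89 positive, and of -0.08 within period 1. At E16 the members' median was -0.14 for testis minus ovary (28 of 89 positive), against 0.05 for all probe sets, where at E13 it had been 0.12 (62 of 89 positive). Within period 3, which held 1 of the E13 testis arrays and both E13 ovary arrays, the E13 median was -0.05 with 35 of 89 positive, so its sign turned. The median change in the sex difference from E13 to E16 was -0.25, with 78 of 89 negative, against 0.00 for all probe sets, and 0 members were called for it. These comparisons share arrays with each other, the E16 ovary pair above all, so they are not separate measurements.

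The ovary values depended on 1 array. Without E16 ovary replicate 2, the array of low Xist and of the highest members' median, the median of ovary E16 minus E13 was 0.08, that of E16 testis minus ovary was 0.03 in place of -0.14, and that of the sex difference at E16 minus E13 was -0.09. Without E16 ovary replicate 1, the array of high actin ratio, the same medians were 0.33, -0.27 and -0.40. Both E13 ovary arrays belonged to period 3, and the E16 array of that period gave a median of 0.08 with 49 of 89 members positive, against 46.0% of all probe sets. Between E14 and E16 each period held 1 array of each age, and the median was 0.15 in period 1 (68 of 89 positive) and 0.12 in period 3 (61 of 89 positive), where 45.7% and 49.2% of all probe sets were positive. For testis minus ovary at E16 the pair within period 1 gave -0.15 with 20 of 89 positive. At E13 22 members were higher in both testis arrays than in both ovary arrays (24.7%, against 27.1% of all probe sets) and 10 lower (11.2%, against 19.1%). At E14 these counts were 8 and 14 (18.3% and 16.2% of all), and at E16 they were 6 and 24 (25.6% and 16.2% of all). The intensities of 40 members did not overlap between E13 and E16 ovary with E16 higher (44.9%, against 19.1% of all probe sets), and 2 did not overlap with E16 lower (2.25%, against 22.4%).

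The ovarian median was highest in complex I. From E13 to E16, 34 of its 35 probe sets were higher in ovary, with a median of 0.29, and at E16 its median for testis minus ovary was -0.26 with 6 of 35 positive. Without E16 ovary replicate 2 these were 25 of 35 with a median of 0.20 in ovary, and -0.22 with 11 of 35 positive between the sexes; without replicate 1 they were 34 of 35 with 0.41, and -0.36 with 0 of 35. In the other complexes the ovarian medians of 0.02 (II), 0.24 (III), 0.17 (IV) and 0.15 (V) became -0.20, -0.05, 0.01 and -0.04 without replicate 2, and 0.30, 0.31, 0.29 and 0.38 without replicate 1. The medians of complexes II, III and V were thus below 0 with one E16 ovary array and above 0 with the other. Those of complexes I and IV were above 0 with either, that of complex IV by only 0.01 without replicate 2. Ndufa2, an accessory subunit of the NADH-oxidising arm, showed the largest difference of any member in this comparison. Its intensity was 310.8 and 318.8 in E13 ovary, 327.0 and 465.4 in E14 ovary, and 630.1 and 885.1 in E16 ovary. In testis it was 310.5 and 514.1 at E13, 399.5 and 580.9 at E14, 352.9 and 551.8 at E16, and 411.0 and 633.9 after culture. Both E16 ovary arrays lay above every fresh testis and younger ovary array, with cultured testis replicate 2 between them. The ovarian difference of 1.21 ± 0.33 (SE) was not called (adjusted p = 0.146, limma). Within period 3, without E16 ovary replicate 2, it was 0.97, and from E14 to E16 it was 0.90 in period 1 and 0.91 in period 3. Ndufa2 was called in 2 of 24 alternative analyses, at 0.93 and adjusted p = 0.0235 when chip period was blocked, and at 1.21 and adjusted p = 0.0111 when the replicate number was, and its adjusted p reached 0.551 over the others.

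The other complex I subunits with the larger ovarian differences were spread over its arms. Ndufa6, which sits at the matrix arm beside the quinone site, was 452.0 and 543.9 at E13 and 746.2 and 1135.3 at E16 in ovary (0.87 ± 0.29 SE, adjusted p = 0.259), a difference that was 0.57 without E16 ovary replicate 2 and 1.17 without replicate 1. Ndufs6, an accessory subunit of the NADH-oxidising arm, was 585.0 and 556.2 at E13 and 855.6 and 930.2 at E16 (0.63, adjusted p = 0.227; 0.57 without E16 ovary replicate 2). Both had non-overlapping ovarian arrays at the 2 ages. Ndufa1 (0.51, or 0.38 without E16 ovary replicate 2) and Ndufb11 (0.55, or 0.44), of the membrane arm, were the other members of complex I among the 10 past the unadjusted threshold, and none of them was called by limma.

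The core subunits of complex I, which carry the electrons, differed among themselves. Ndufv1, which binds NADH, was 902.5 and 521.7 in the E16 ovary arrays and 536.5 and 630.4 in E13 ovary, and the gap between the E16 replicates exceeded the difference of 0.23 between the ages. Ndufv2, its iron-sulfur partner, was 408.0 and 546.0 in E16 testis against 676.4 and 758.2 in E16 ovary, without overlap. That difference of -0.58 had the smallest adjusted p of any member in this comparison, 0.248, and was -0.46 within period 1 and -0.50 without E16 ovary replicate 2. Ndufa3, an accessory subunit, was 341.1 and 546.8 against 562.7 and 866.8 (-0.67, adjusted p = 0.378; -0.37 without E16 ovary replicate 2), and E13 ovary had 413.1 and 526.7. Ndufs1, the largest iron-sulfur subunit, differed by 0.18 between E16 testis and ovary, with a 95% interval from -0.24 to 0.60. Ndufs3, Ndufs7 and Ndufs8, of the arm that passes electrons to ubiquinone, differed by -0.30, -0.33 and -0.25 and were not called. In testis from E13 to E16, Ndufs4, an accessory subunit of the NADH-oxidising arm, went from 174.3 and 181.9 to 114.5 and 143.3 (-0.43, adjusted p = 0.586). After culture it was 117.9 and 182.0, which spanned both ages.

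Among the 5 complex I assembly factors, Ndufaf8 was the member called. It acts with Ndufaf5, the hydroxylase of Ndufs7, and its promoter is printed above. Its intensity was 141.6 and 172.5 in E13 testis, 217.6 and 201.8 in E14 testis, and 192.7 and 206.0 in E16 testis. In ovary it was 124.0 and 126.6 at E13, 117.8 and 134.0 at E14, and 168.1 and 150.1 at E16. At each age both testis arrays lay above both ovary arrays, although the lower E13 testis array lay below both E16 ovary arrays. Averaged over the ages, testis was higher by 0.42 ± 0.09 (SE; 95% interval 0.21 to 0.62; 3 ages, 6 arrays a sex; limma adjusted p = 0.043). The differences were 0.29 at E13, 0.67 at E14 and 0.30 at E16, and none of the single ages passed (adjusted p = 0.701, 0.214 and 0.477). Within a period they were 0.16 at E13, 0.54 at E14 and 0.42 at E16.

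The Ndufaf8 call was a narrow one. It was lost in 17 of 24 alternative analyses, with adjusted p between 0.0135 and 0.193 over all of them, and in 12 of the 14 that left out 1 array. With chip period as a block the difference was 0.36 and the adjusted p 0.193, without the 4 arrays of discordant Xist 0.42 and 0.136, and without the 2 arrays of high actin ratio 0.44 and 0.0844. In cultured testis Ndufaf8 was 148.1 and 137.8, below both E16 testis arrays and within the range of E13 testis and ovary. The difference from fresh E16 testis was -0.44 (adjusted p = 0.634).

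Ndufaf4, another assembly factor, was 116.8 and 120.4 in E13 testis against 111.1 and 101.2 in E13 ovary, and 148.6 and 149.1 in E16 testis against 95.3 and 117.4 in E16 ovary. Both ages were without overlap and testis was the higher. At E14 the ovary arrays were 70.7 and 205.9, the lowest and the highest of all 14, and enclosed those of testis (139.6 and 178.7). The mean difference over the ages was 0.30 ± 0.20 (SE) and was called only without E14 ovary replicate 2. Ndufaf3, Ndufaf5 and Ndufaf7 differed between testis and ovary over the ages by less than 0.13 in size and were not called.

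**Figure D3:**
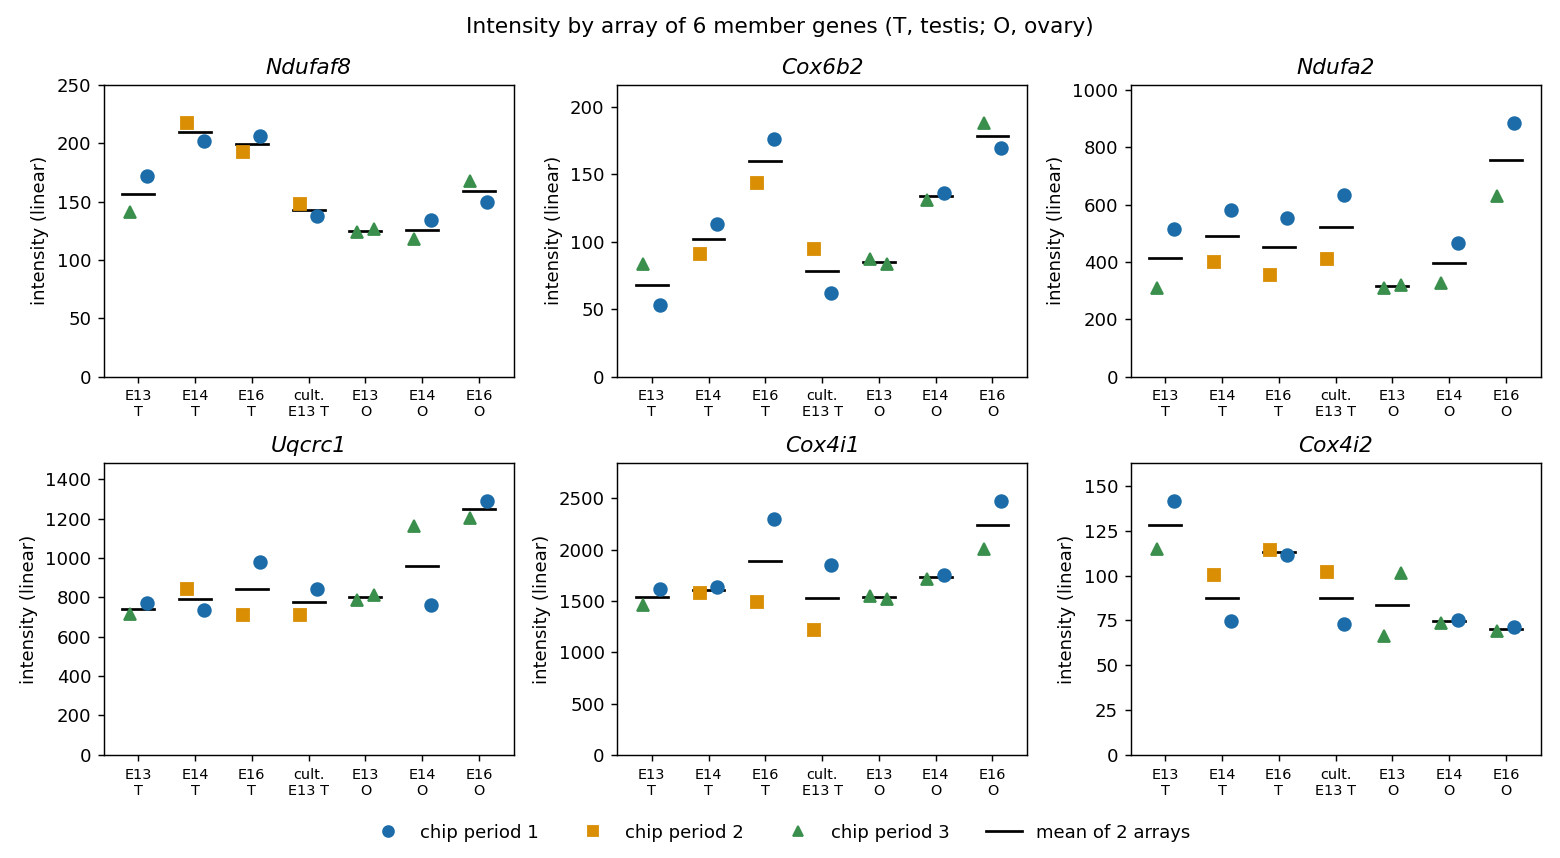
Intensity of 6 members on each array (linear scale from 0), by group, with the chip period as the marker and a bar at the mean of the 2 arrays. Ndufaf8 is higher in both testis arrays than in both ovary arrays at each age, Cox6b2 is highest at E16 in both sexes, Ndufa2 and Uqcrc1 are highest in E16 ovary, and Cox4i1 and Cox4i2 show smaller differences.

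Complex II oxidises succinate and is encoded wholly in the nucleus. Its 5 probe sets had a median difference of 0.02 from E13 to E16 in ovary and -0.11 in testis, and of -0.16 between cultured and fresh E13 testis, where all 5 were lower in culture and none was called. Sdha, the flavoprotein that binds succinate, was 571.6 and 550.1 in E13 testis, 610.1 and 591.1 in E16 testis, 573.1 and 652.2 in E13 ovary, and 530.6 and 887.1 in E16 ovary. The E16 ovary arrays lay further apart than the means of any 2 groups, and the ovarian difference of 0.16 had a 95% interval from -0.31 to 0.64. Sdhb, the iron-sulfur subunit, differed between E16 testis and ovary by -0.05 and Sdhc, a membrane anchor, by -0.14. The brighter of the 2 probe sets of Sdhd, the other anchor, was 664.0 and 733.8 in E13 testis and 505.1 and 571.6 in E16 testis, a difference of -0.37 (adjusted p = 0.563).

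In complex III no member was called. Where E16 ovary was compared with E13 ovary or E16 testis, the largest difference was that of a core protein, Uqcrc1. In testis from E13 to E16 the largest was that of Uqcr10, at -0.48 (limma adjusted p = 0.776), and its arrays overlapped between these ages. Uqcrc1 was 788.0 and 811.8 in E13 ovary, 1161.4 and 760.0 in E14 ovary, and 1204.3 and 1287.6 in E16 ovary. Testis had 713.2 and 769.1 at E13, 843.7 and 737.5 at E14, and 707.8 and 980.0 at E16. Both E16 ovary arrays were above all other arrays, and E14 ovary replicate 1 came next. The ovarian difference from E13 to E16 was 0.63 ± 0.23 (SE, adjusted p = 0.311), with 0.58 within period 3, and E16 testis minus ovary was -0.57 (adjusted p = 0.309), with -0.39 within period 1. Uqcrc2, the other core protein, followed a different course: in ovary it was 691.2 and 753.0 at E13 and 636.2 and 1143.1 at E16, with a difference of 0.24 and of -0.18 within period 3. Uqcrfs1, the Rieske iron-sulfur protein, was 583.9 in cultured testis replicate 2 against 787.4 to 1057.9 in the 13 other arrays, so its difference of -0.46 from fresh E13 testis (adjusted p = 0.424) rested on that array, 1 of those with a high actin ratio.

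Complex IV held the isoforms with the clearest patterns. Subunit 6b has a general form, Cox6b1, and a form known from adult germ cells of the testis, Cox6b2. Cox6b2 was 83.3 and 52.8 in E13 testis, 91.0 and 113.6 in E14 testis, and 143.7 and 176.0 in E16 testis. In ovary it was 86.9 and 83.6 at E13, 130.8 and 136.6 at E14, and 188.2 and 169.4 at E16. Within each sex the arrays of the 3 ages did not overlap, and the level was higher at each later age. In testis it was higher at E16 than at E13 by 1.08 ± 0.23 (SE; 95% interval 0.59 to 1.58), which narrowly missed the threshold (limma adjusted p = 0.0536), with 1.48 within period 1. In ovary the difference was 0.94 ± 0.23 (adjusted p = 0.0932), with 1.01 within period 3. Between the sexes at E16 it was -0.15, with a 95% interval from -0.65 to 0.34.

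The testis difference of Cox6b2 was called in 6 of 24 alternative analyses, with adjusted p between 0.0295 and 0.357, and the ovary difference in none of 24, with 0.0515 to 0.461. In cultured testis Cox6b2 was 94.4 and 62.3, close to fresh E13 testis and below both E16 testis arrays. The difference from E16 testis was -0.91 (adjusted p = 0.307), with -1.29 in period 1 and -0.53 in period 2. Cox6b1, in contrast, was 754.1 to 1021.2 over all 14 arrays, and its differences from E13 to E16 were -0.17 in testis and -0.08 in ovary.

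The germ cell marker Sycp3, a component of the meiotic chromosome axis, moved beside Cox6b2, while Kit, the other one measured, did not. Sycp3 was 17.8 and 35.9 in E13 testis, 41.0 and 60.6 in E14 testis, 98.1 and 130.3 in E16 testis, 18.9 and 20.8 in E13 ovary, 50.4 and 76.6 in E14 ovary, 152.9 and 188.2 in E16 ovary, and 47.2 and 32.5 in cultured testis. Of 6 listed germ cell markers 2 were measured, Sycp3 and Kit, and neither was at 0. Their summed intensity was 49.1 to 62.8 in E13 testis and 160.5 to 166.5 in E16 testis, 44.6 to 81.1 in E13 ovary and 184.5 to 234.7 in E16 ovary, and 47.5 to 99.3 in cultured testis. In E14 ovary the sum was 128.1 to 165.4. Sycp3 made up most of the sums at E16. The rest of the sum, Kit, was lower in E16 than in E14 ovary and overlapped between E13 and E16 testis. Sycp3 was called between E13 and E16 in testis (1.63, limma adjusted p = 0.0168) and in ovary (2.37, adjusted p = 0.00284). Its part in the Cox6b2 differences was not tested.

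Subunit 4 has a general isoform, Cox4i1, and Cox4i2, known from lung. Cox4i1 was 1550.8 and 1517.1 in E13 ovary and 2002.6 and 2470.8 in E16 ovary, without overlap (0.53, adjusted p = 0.468; 0.38 within period 3). Testis at E16 had 1489.7 and 2294.6, and the spread between these replicates covered most of the range. Cox4i2 went the other way between the sexes: at E16 it was 114.3 and 111.8 in testis against 68.9 and 71.6 in ovary, and at E13 it was 115.0 and 141.5 against 66.1 and 101.6. Neither age overlapped between the sexes, and at E14 testis (100.5 and 74.9) and ovary (73.6 and 75.3) did. Over the ages testis was higher by 0.44 ± 0.13 (SE, adjusted p = 0.104, limma), a value that ranged from 0.29 to 0.52 over the alternatives with none called. In cultured testis Cox4i2 was 102.0 and 73.1, a difference of -0.49 from fresh E13 testis (adjusted p = 0.4).

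Cox5a and Cox5b are nuclear subunits that surround the catalytic core of complex IV. Cox5a was 137.5 and 164.5 in E13 testis against 85.8 and 115.8 in E16 testis and 114.0 and 108.3 after culture, with differences from E13 of -0.52 (adjusted p = 0.525) and -0.39 (adjusted p = 0.622). In ovary it was 103.1 and 77.6 at E13 and 89.3 and 102.0 at E16, which overlapped. Cox5b was 815.1 and 1157.1 in E16 testis and 1178.6 and 1316.0 in E16 ovary (-0.35, adjusted p = 0.453).

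The muscle isoforms of complex IV were dim in the gonad. Cox8b was 1.6 to 6.8 on every array, Cox6a2 was 5.5 to 36.1, and Cox7a1 was 35.4 and 38.7 in E14 testis and 8.5 to 21.0 elsewhere. The Cox7a1 difference of E14 testis from E14 ovary, 0.86 (adjusted p = 0.234), was one of the larger ones, at a level where the offset matters. Striated muscle markers (14 of 15 measured) summed to 458.1 and 477.9 in E14 testis against 315.3 and 326.2 in E14 ovary, but to 586.0 and 589.3 in E16 testis, where Cox7a1 was 9.9 and 21.0. The list of these markers includes Cox7a1, Cox6a2 and Cox8b, so the sums contain the Cox7a1 signal itself. The part of the other muscle markers in the Cox7a1 difference was not tested. Ndufa4l2, known as a hypoxia target, was at most 30.8 on any array. Their general counterparts were bright: Cox8a was 1039.5 to 1706.4 and Cox6a1 815.3 to 1420.6, and neither was called in any comparison.

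Several genes of complex IV have near-identical copies, so their signals may be shared. Cox6c-ps1, a pseudogene related to Cox6c, was 109.3 and 103.7 in cultured testis, 63.3 and 57.4 in fresh E13 testis and 33.5 to 76.1 in the other fresh gonads. The cultured arrays lay above every fresh array. The difference from fresh E13 testis was 0.68 ± 0.24 (SE, adjusted p = 0.248, limma), with 0.71 within period 1. Cox6c itself was 2489.1 and 3543.2 in cultured and 1860.2 and 3181.9 in fresh E13 testis, which overlapped.

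In complex V, which makes ATP, the catalytic head was steady and the small stalk subunit less so. Atp5f1a, the alpha subunit, was 1354.7 to 1828.4 on all arrays, and its difference from E13 to E16 was -0.07 in testis and 0.03 in ovary. Atp5f1b, the catalytic beta subunit, differed between testis and ovary by -0.25 over the ages (adjusted p = 0.243). Atp5f1e, the epsilon subunit of the central stalk, was 1379.8 and 1321.4 in E13 ovary, 1226.9 and 1454.0 in E14 ovary, and 1908.2 and 2416.4 in E16 ovary. The E16 ovary arrays did not overlap with younger ovary (0.66 from E13, adjusted p = 0.468; 0.49 within period 3), and E16 testis had 1141.0 and 1664.8. From E14 to E16 in ovary the difference was 0.73 in period 1 and 0.63 in period 3.

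The inhibitor Atp5if1, which keeps the enzyme from running backwards, had 3 probe sets. On the brightest, ovary had 369.0 and 403.0 at E13 and 559.1 and 609.4 at E16 (0.58, adjusted p = 0.36; 0.52 within period 3). The other 2 were dim, with means of 50.6 and 27.2, and in ovary their replicates at E14 were 23.8 and 78.2, and 4.8 and 43.2. Their ovarian differences from E13 to E16 were 0.14 and 0.20, and -0.17 and -0.39 within period 3. For E16 testis minus ovary the dim 2 had 0.21 and 0.38, where the brightest had -0.43. Without E16 ovary replicate 1 the dim 2 had -0.10 and -0.21 there. The subunits of the peripheral stalk (Atp5pb, Atp5pd, Atp5pf and Atp5po) and the small membrane subunits (Atp5me, Atp5mf, Atp5mg, Atp5mk and Atp5mpl) were not called in any comparison, nor was Atp5mc3, the one measured isoform of the rotating c ring. Atp5mc3 was 1653.6 to 2411.1 on the 14 arrays.

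**Figure D4:**
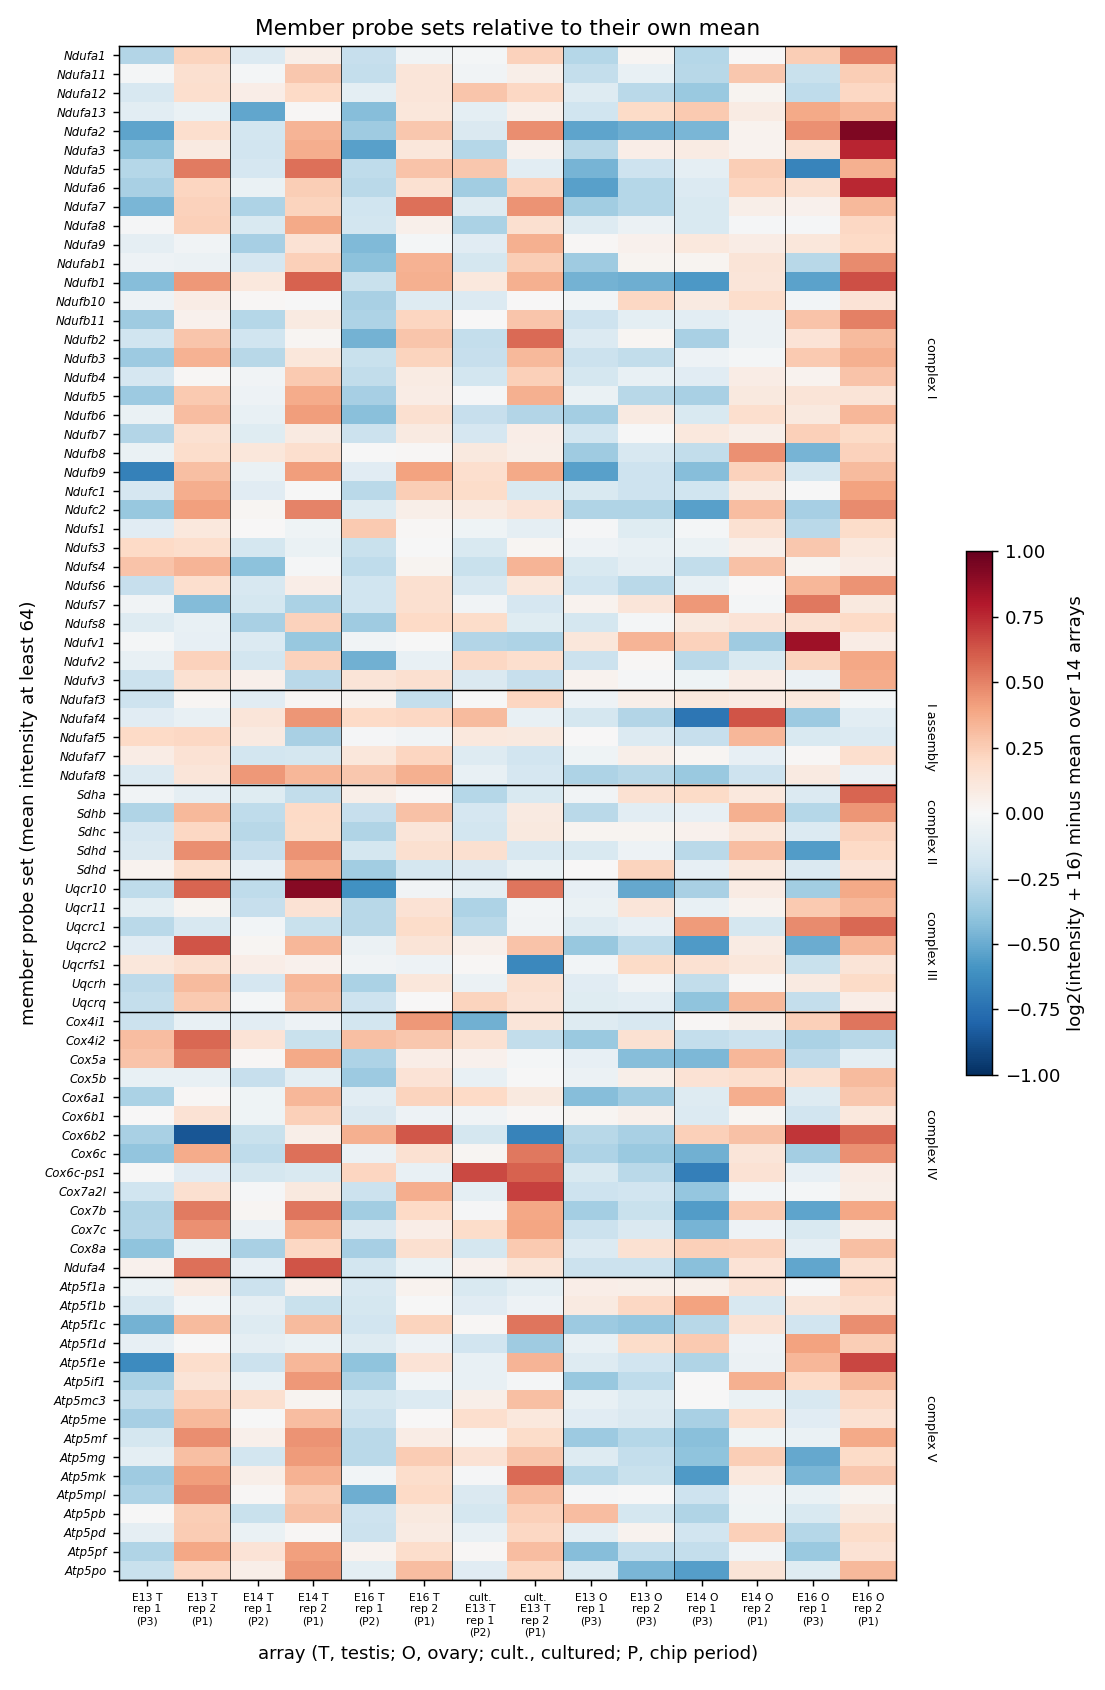
Log2(intensity + 16) of the 81 member probe sets with a mean of at least 64, each minus its own mean over the 14 arrays, by complex (sections) and array (columns), with the chip period in brackets. Columns of period 1 are redder in most groups, E16 ovary replicate 2 most of all (median 9.71). Ndufs7, Ndufv1, Cox4i2, Uqcrfs1, Atp5f1b and Cox6b2 had the lowest median correlations with the other members.

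Cultured testis and fresh testis had similar medians. Against fresh E13 testis the members' median was 0.02 (all probe sets -0.01), with 52 of 89 positive and 85 of 89 within 0.5 of 0. Against fresh E16 testis, which is the age the cultured testes had reached, the median was 0.09 (all 0.02), with 61 of 89 positive and 86 within 0.5. Non-overlapping members were 5 higher and 14 lower against E13 (19.8% and 19.6% of all probe sets) and 15 higher and 9 lower against E16 (19.5% and 15.8%). Within periods the medians were -0.05 against E13 (period 1) and 0.06 and 0.14 against E16 (periods 1 and 2). Both comparisons share the cultured arrays. Cultured testis replicate 2 differed from replicate 1 in red blood cell markers, with a summed intensity of 1038.7 (5 of 9 measured) against 6477.5 to 13049.3 in all other arrays. Both cultured arrays were higher than all others in adrenal cortex markers (2 of 4 measured), with 487.8 and 331.9 against 12.9 to 49.6, and in macrophage markers (6 of 6 measured), with 482.7 and 412.6 against 218.3 to 364.7. The part of these cells in the culture values was not tested.

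Across the 14 arrays the members shared part of their variation. Over the 3160 pairs among 80 genes with bright probe sets the median correlation was 0.41, with 0.48 within and 0.38 between complexes, and a range from -0.85 to 0.95. Arrays share chip period and scaling, so this is a description of the arrays and has no test. The pair most alike was Cox6c and Atp5f1c, the gamma subunit of complex V (r = 0.95). The lowest median correlations with the other members were those of Ndufs7 (-0.25), Ndufv1 (-0.19), Cox4i2 (-0.11), Uqcrfs1 (-0.08), Atp5f1b (-0.05) and Cox6b2 (-0.01). Ndufaf8 had 0.18 and Ndufa2 had 0.56.

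The wider pathway was measured by 11 of 14 listed electron carriers and partners of complexes III and IV, 10 of 12 carriers of nucleotides, phosphate and pores, 14 of 18 enzymes of pyruvate oxidation and the citric acid cycle, 11 of 20 regulators and 30 of 34 assembly factors. A single call by limma fell on these genes over the 13 comparisons, in the assembly factors and for testis against ovary over the ages, where 2.31% of all probe sets were called. It was Oxa1l, which inserts proteins into the inner membrane: it was 353.0 and 332.1, 294.5 and 285.7, and 324.7 and 385.1 in testis at the 3 ages, against 386.4 and 428.2, 455.0 and 423.8, and 570.5 and 468.9 in ovary. Testis lay below ovary at each age. The mean over the ages was -0.45 (limma adjusted p = 0.0456), and the call was lost in 16 of 24 alternative analyses, with adjusted p between 0.0179 and 0.246. From E13 to E16 in ovary the medians of these 4 lists and of the assembly factors were 0.26, 0.20, 0.28, 0.03 and 0.04, in the order named, beside 0.22 for the members and -0.02 for all probe sets. Without E16 ovary replicate 2 they were 0.18, 0.12, 0.04, -0.08 and -0.05.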

How the data were processed

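Fetal rat gonad RNA was measured on 14 Affymetrix arrays, 2 per group. The deposited values are intensities per probe set on a linear scale; the authors' summary software is not given in the sources used here, and each array had a 2% trimmed mean of 125.026 to 125.034. Nothing says how the pools of a group differed beyond their animals. By the chip labels, however, the 2 arrays of each group came from different chip batches. In all groups but E13 ovary they also came from different chip periods. The p-values therefore measure the spread between pools and chips together, and the number of arrays limits the precision. Values were analysed as log2(intensity + 16) with limma 3.58.1 in R 4.3.3, in 1 fit over all 7 groups (7 residual and 4.16 prior degrees of freedom), with 13 comparisons and Benjamini-Hochberg adjustment over 15866 probe sets. The 57 control probe sets were left out. The fit was tested on simulated data. A fold on this scale understates the change of dim genes.

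The members and lists were chosen with earlier results of these data known. Named are the members called, the largest non-overlapping differences per complex, the core subunits and the tissue isoforms; others were named after their values were seen (Ndufaf4, Atp5f1e, Atp5if1, Cox6c, Ndufs6). Alternatives were offsets of 1 and 64, quantile normalization, a minimum mean of 64, chip period, chip batch or replicate number as a block, only the groups compared, each array left out, and 1 probe set per gene. Leaving out the 4 arrays of discordant Xist or the 2 of highest actin ratio was chosen after seeing the data, as were medians by complex and list without each E16 ovary array. Symbols come from the platform annotation.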

Additional observations from a re-analysis of the deposited data

Results flagged for a closer look

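In 2 members both testis arrays lay on one side of both ovary arrays at E13 and on the opposite side at E14. They were 2 of the 81 members with a mean intensity of at least 64 (2.47%), against 230 of 8073 such probe sets on the array (2.85%), so the share of members was near that of the array. Between E14 and E16 the members so reversed were 0 of 81 (2.5% of the array), and between E13 and E16 1 of 81, Ndufs3 (4.06% of the array). Ndufs3, a core subunit of complex I, was 436.1 and 430.6 in E13 testis against 365.2 and 358.7 in E13 ovary, and 333.2 and 360.5 in E14 testis against 361.6 and 391.9 in E14 ovary. The sex difference at E14 minus that at E13 was -0.36. Ndufaf7, an assembly factor of complex I, was 95.4 and 100.7 against 86.4 and 94.2 at E13, and 77.2 and 77.6 against 90.9 and 84.0 at E14, with a difference of -0.25. The difference between the ages was not tested for either gene.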

How the results depend on the processing

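The median difference over the members stayed within the replicate SD of 0.22 of its value in all 312 combinations of comparison and alternative, a spread wide enough to include the change of sign for testis minus ovary at E16. For testis minus ovary over the ages the count of members called was 1 and became 0 with an offset of 1, with chip period as a block, with only the groups compared, without the 4 arrays of discordant Xist and without the 2 of highest actin ratio. Leaving out 1 array gave 0 to 2, where 2 was Ndufaf4 and Ndufaf8 without E14 ovary replicate 2. All calls there, 366, became 297 with an offset of 1, 219 with the period block, 377 with only the groups compared, 48 without the Xist arrays, 216 without the actin arrays and 146 to 815 without 1 array, 815 being without E14 ovary replicate 2. In testis from E13 to E16 the count of 0 became 1, Cox6b2, with an offset of 64, quantile normalization, a minimum mean of 64 and the replicate block, where all calls, 150, were 162, 164, 127 and 215, and was 0 to 1 without 1 array, 1 being without either cultured array. In ovary from E13 to E16 the count of 0 became 1, Ndufa2, with chip period as a block and 2, Ndufa2 and Ndufa6, with the replicate block, where all calls, 141, were 202 and 276. Over 21 pairs of groups, arrays of the same replicate number had correlated deviations of -0.05 to 0.53 (median 0.17), over 0.1 in 15. In every group but E13 ovary, replicate 2 was the array of period 1, so replicate number and chip period largely coincided. The main fit did not pair the arrays by replicate number, although arrays of the same number shared part of their deviations. The cause of the changes in these counts was not tested. Signal near background limits the 8 dim probe sets.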
